A study of Homo sapiens with 2 samples.

Results

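The genes of de novo fatty acid synthesis described here are 10 transcripts chosen by name: SREBF1, which encodes the transcription factor SREBP-1, and 9 enzymes that supply, build, elongate or desaturate fatty acids (ACLY, ACACA, ACACB, ME1, FASN, SCD, ELOVL6, FADS1 and FADS2). All 10 had a value among the 19989 genes of the table, and all 10 reached a mean of 1 CPM (counts scaled to library size), as did 13052 genes in all, called expressed genes here. The 9345 genes that averaged 10 CPM or more are called well-expressed, and the 2239 that averaged 100 CPM or more abundant. The values come from polyA-selected RNA-seq libraries of NCI-H716 cells, 1 human line from a colorectal adenocarcinoma of the cecum that serves as a model of the enteroendocrine L-cell. The cells were left to attach to Matrigel for 24 h and then cultured for 48 h in DMEM, supplemented with 10% serum and antibiotics, in low (5.5 mM) or high (25 mM) glucose. The medium, the serum and the matrix were common to both groups, and 1 library was sequenced for each concentration. No difference between the libraries therefore has a replicate check, no p-value was computed, and each interval given below is a 95% interval that covers counting error only.

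Fatty acid synthesis starts in the cytosol from citrate. ATP citrate lyase (ACLY) cleaves citrate to acetyl-CoA, acetyl-CoA carboxylase (ACACA and ACACB) makes malonyl-CoA, and fatty acid synthase (FASN) joins these units into palmitate at the expense of NADPH, part of which comes from malic enzyme (ME1). Elongases and desaturases of the endoplasmic reticulum then turn palmitate and dietary fatty acids into longer and unsaturated chains. In liver and fat, SREBP-1 and the glucose-responsive factor ChREBP are known to drive most of these genes. In cancer lines the pathway is often active irrespective of the diet.

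The low glucose library held 21757819 estimated counts and the high glucose library 19456587, so that a count of 0 allows up to 0.138 and 0.154 CPM (3 counts of the total). Of 9 markers of the L-cell and other enteroendocrine cells, 7 reached a mean of 1 CPM, with a summed level of 4330 CPM in low and 4143 CPM in high glucose, while PYY and NEUROD1 had no value. Of 6 epithelial markers, 5 reached a mean of 1 CPM (summed level, 469 and 526 CPM), but CDH1, which encodes E-cadherin, was at 0.0582 and 0.166 CPM, a level near the limit of 3 counts. Of 5 adipocyte genes, 0 reached a mean of 1 CPM. Of 5 hepatocyte genes, 2 did (summed level, 459 and 489 CPM), of which ALB, the albumin gene, was at 456 and 487 CPM and TTR at 2.13 and 1.603 CPM, while SERPINA1 was at 0.703 and 0.782 CPM and APOA1 and CYP3A4 had no value. Of 5 fibroblast genes, 3 reached a mean of 1 CPM (summed level, 996 and 928 CPM, most of it COL3A1), and of 5 immune genes, 1 did (summed level, 15.2 and 14.1 CPM). The part of these differences in the results was not tested.

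Members of the pathway took very different shares of the reads, which follow transcript length as well as abundance. SCD, the stearoyl-CoA desaturase that makes oleate, took the most, at 2401 CPM in low and 2686 CPM in high glucose, and ranked 20 by CPM among all genes of the table. It made up 57.2% of the summed CPM of the 10 genes in low glucose and 58.9% in high glucose. FASN, ACLY and SREBF1 followed with means of 619, 543 and 265 CPM. ELOVL6, ACACA, FADS1 and ME1 had means between 37.3 and 173 CPM. ACACB and FADS2 took the fewest reads, with means of 7.70 and 9.61 CPM. Together the 10 genes took 4199 CPM (0.420% of the library) in low glucose and 4558 CPM (0.456%) in high, a log2 ratio of 0.12, and without SCD the sums were 1798 and 1871 CPM. In bulk RNA, fewer cells of a type and less RNA per cell cannot be told apart.

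**Figure D1:**
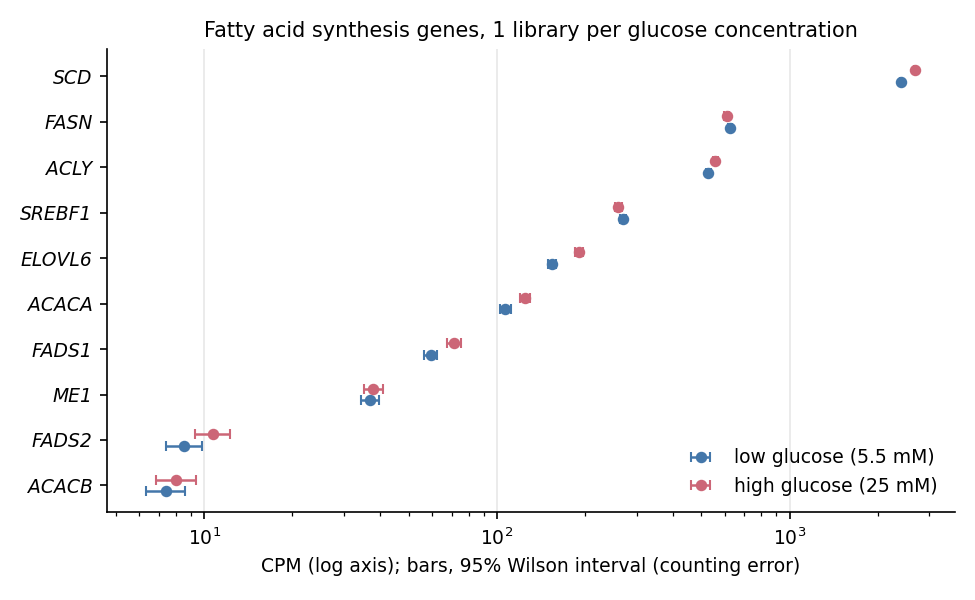
CPM of the 10 genes on a log axis, 1 point for each library (blue, low glucose; red, high glucose) with its 95% Wilson interval. The levels run from 7.38 CPM for ACACB to 2686 CPM for SCD, and the points of each gene lie close together on this scale.

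Transcript length differs between these genes, and levels of different genes were therefore compared as CPM per kb of the principal protein-coding transcript. On this scale the order was the same in both libraries: SCD, ACLY, FASN, SREBF1, ELOVL6, FADS1, ACACA, ME1, FADS2 and ACACB. SCD was at 448 CPM per kb in low and 501 CPM per kb in high glucose, and ACLY followed at 122 and 128 CPM per kb. FASN, whose transcript of 8565 bases is among the longest of the set, was at 73.3 and 71.2 CPM per kb. The neighbours ACACA and ME1 could not be set apart in low glucose, at 11.2 CPM per kb (interval 10.7 to 11.7) and 10.9 CPM per kb (10.2 to 11.7). In high glucose their intervals no longer overlapped, with 13.1 (12.6 to 13.6) for ACACA and 11.2 (10.4 to 12.1) for ME1. When the length of all annotated exons was used instead, 8 of the 10 genes kept their place, and FADS1 and ME1 exchanged theirs. The order of ACACA and ME1 was then the reverse. ME1 was at 10.9 CPM per kb in low and 11.2 in high glucose, and ACACA at 8.22 and 9.61. Their order therefore depends on the length used, which the counting intervals do not cover.

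Differences between the libraries were small. Of the 10 genes, 8 were higher and 2 lower in high glucose, with a median log2 ratio of high over low glucose of 0.14, against -0.01 over all expressed genes, of which 48.6% were higher. The median was 0.01 over well-expressed genes, of which 51.9% were higher, and 0.03 over abundant genes, of which 57.9% were higher, and 8 of the 10 members were well-expressed and 6 abundant. The log2 ratios ran from -0.05 for SREBF1 to 0.33 for FADS2, which is a ratio of 1.25. With a log2 ratio of 0.25 in either direction as the limit, 3 genes were higher (FADS2, ELOVL6 and FADS1), against 7.16% of expressed genes, and 0 were lower, against 12.2%. FADS1, at 0.27, lay just inside this limit, and ACACA, at 0.23, just outside it.

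The counting interval of the ratio lay above 0 for 6 genes (ACLY, ACACA, SCD, ELOVL6, FADS1 and FADS2), against 15.8% of expressed genes, and below 0 for 1 gene (FASN), against 15.9%. These shares depend on depth, since abundant genes have narrow intervals. Among the abundant genes, the interval lay above 0 for 36.4% and below 0 for 25.9%, and among the 6 members at this level for 4 and 1. Ratios past the limit were rarer at this level, at 1.65% higher and 2.32% lower, and ELOVL6 was the member that reached it. The log2 ratios of these abundant genes had an SD of 0.13 over all 2239 genes, which is wider than the counting error of any member among them.

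**Figure D2:**
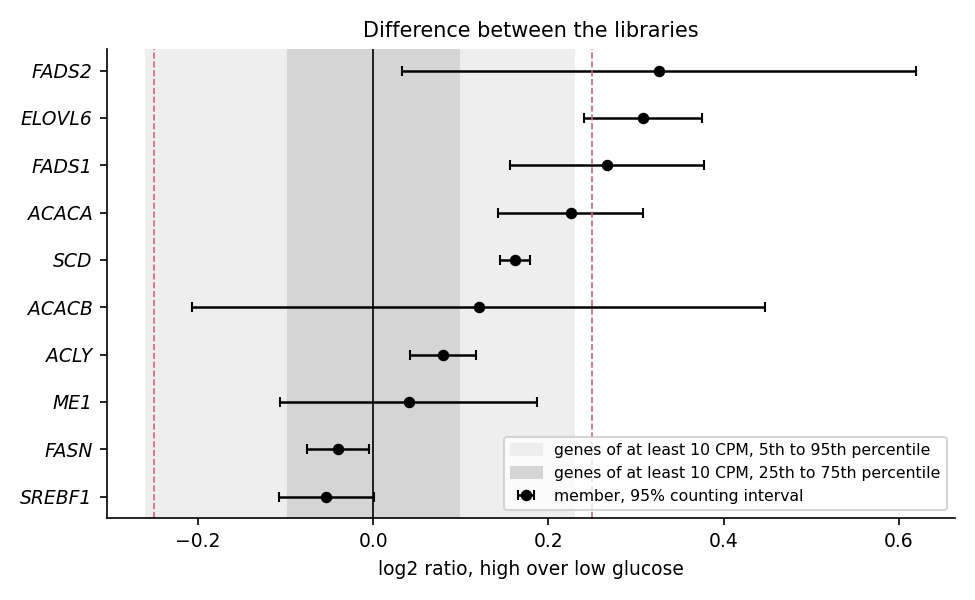
Log2 ratio of high over low glucose for each gene with its 95% counting interval. Grey bands give the spread of the 9345 well-expressed genes (quartiles -0.10 and 0.10, and 5th to 95th percentiles -0.26 and 0.23), and dashed lines mark the limit of 0.25. The points of FADS2, ELOVL6 and FADS1 lie to the right of both bands, and those of SREBF1 and FASN lie within the inner band. FADS2 averaged 9.61 CPM and so is not 1 of the banded genes. Its interval (0.03 to 0.62) reaches back into both bands, and that of FADS1 (0.16 to 0.38) into the outer one.

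SREBF1 encodes both SREBP-1a and SREBP-1c, which start from different promoters and cannot be told apart in a value per gene. SREBF1 (chromosome 17 of GRCh38, 17810399 to 17837002, minus strand) was at 269 CPM in low glucose (interval 263 to 276) and 259.7 CPM in high glucose (253 to 267). The intervals overlapped, and the log2 ratio was -0.05 (-0.11 to 0.001), higher than that of 34.6% of well-expressed genes. Differences smaller in size were seen for 28.9% of them. The 3' end of the gene meets that of RAI1 on the opposite strand, where 6.92% of the annotated exon bases of SREBF1 are shared. None of these bases belong to its principal transcript, and RAI1 was at 36.5 and 37.9 CPM.

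Precursor enzymes came next in the pathway. ACLY (chromosome 17, 41866908 to 41930542, minus strand) was at 528 CPM in low glucose (518 to 537) and 558 CPM in high glucose (547 to 568). The intervals did not overlap, and the log2 ratio was 0.08 (0.04 to 0.12), a difference of 5.66%. This exceeded counting error, and 42.0% of well-expressed genes differed by less in either direction. ME1 (chromosome 6, 83210389 to 83431071, minus strand), which is also known as a target of the antioxidant factor NRF2, was at 36.8 CPM (34.3 to 39.4) and 37.8 CPM (35.2 to 40.7). Its log2 ratio of 0.04 (-0.11 to 0.19) was not distinguishable from 0 at this depth.

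Acetyl-CoA carboxylase was represented mainly by ACACA, the cytosolic enzyme that feeds FASN. ACACA (chromosome 17, 37084988 to 37406818, minus strand) was at 107 CPM in low glucose (103 to 111) and 125 CPM in high glucose (120 to 130). These intervals did not overlap, and the log2 ratio of 0.23 (0.14 to 0.31) exceeded that of 94.7% of well-expressed genes. ACACB (chromosome 12, 109116595 to 109268226, plus strand) encodes the mitochondrial carboxylase whose malonyl-CoA restrains fatty acid oxidation. It was far lower, at 7.38 CPM (6.31 to 8.60) and 8.02 CPM (6.84 to 9.36), from 160 and 156 estimated counts. The log2 ratio of 0.12 had an interval from -0.21 to 0.45, so that neither a difference the size of that of ACACA nor its absence could be shown. ACACA exceeded ACACB 14.5 times in low and 15.6 times in high glucose in CPM, with transcripts of 9554 and 9360 bases.

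FASN (chromosome 17, 82078333 to 82098332, minus strand) was at 627 CPM in low glucose (617 to 638) and 610.2 CPM in high glucose (599 to 621). The intervals overlapped, and the log2 ratio was -0.04 (-0.08 to -0.005), a difference of -2.74%. The upper limit of its log2 ratio was -0.000155 with library totals alone and -0.000420 with median-of-ratios factors, and 21.7% of well-expressed genes differed by less in either direction. FASN and SREBF1 were the members that were lower in high glucose.

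SCD and ELOVL6 act on the products of FASN, and both were higher in high glucose. SCD (chromosome 10, 100347124 to 100364834, plus strand) stood at 2401 CPM in low glucose (2381 to 2422) and 2686 CPM in high glucose (2663 to 2709), from 52162 and 52342 estimated counts. The log2 ratio of 0.16 (0.14 to 0.18) was the most precise of the set and exceeded that of 87.6% of well-expressed genes. Its processed pseudogene SCDP1 on chromosome 17 was at 0.150 and 0.166 CPM, near the limit of 3 counts. ELOVL6 (chromosome 4, 110045846 to 110199199, minus strand), the elongase that turns palmitate into stearate, was at 154 CPM (149 to 160) and 191 CPM (185 to 197). The intervals did not overlap, and the log2 ratio of 0.31 (0.24 to 0.38) exceeded that of 98.2% of these genes and ranked 170 from the highest.

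FADS1 and FADS2 encode the delta-5 and delta-6 desaturases of polyunsaturated fatty acid synthesis and are neighbours on chromosome 11. FADS1 (61799625 to 61829318, minus strand) was at 59.3 CPM in low glucose (56.1 to 62.6) and 71.3 CPM in high glucose (67.7 to 75.2). The intervals did not overlap, and its log2 ratio was 0.27 (0.16 to 0.38). FADS2 (61792980 to 61867354, plus strand) stood at 8.53 CPM (7.37 to 9.83) and 10.7 CPM (9.32 to 12.2), from 185 and 208 estimated counts. Here the intervals overlapped, and the log2 ratio of 0.33 ran from 0.03 to 0.62. The genes lie on opposite strands and share 490 exon bases, 142 of which are in the principal transcript of FADS1 (3.14% of it) and 148 in that of FADS2 (4.08%). The library kit, TruSeq RNA v2, does not mark strand, so reads from these bases cannot be told apart, and the part of the FADS2 value that they carry was not tested. FADS2 also shares 49 exon bases with FEN1 on the same strand, which was at 59.9 and 67.0 CPM.

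**Figure D3:**
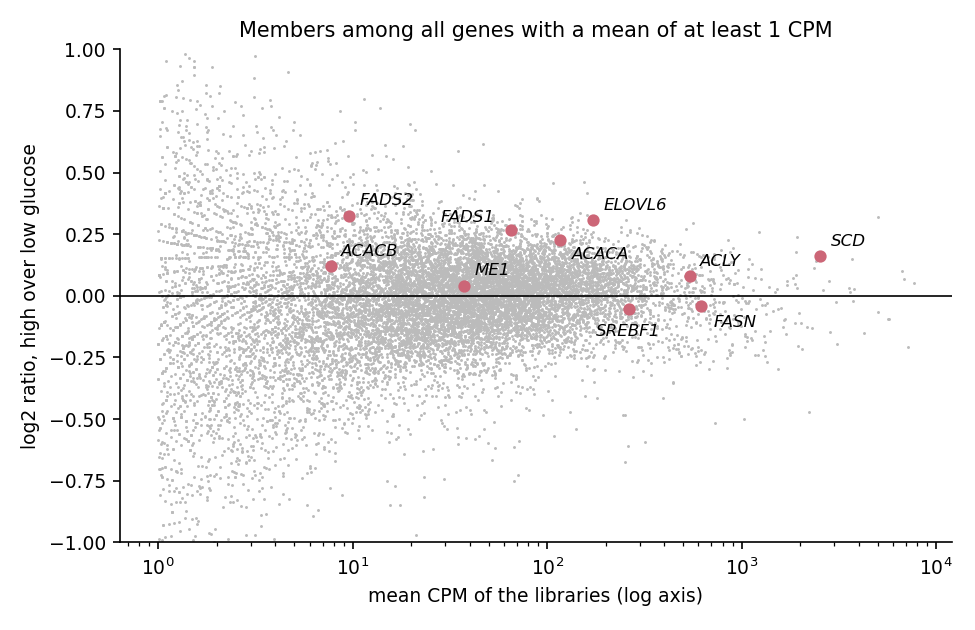
Log2 ratio of high over low glucose against mean CPM on a log axis, with 1 grey point for each of 12943 expressed genes and the 10 members in red. The 109 genes with a log2 ratio beyond 1 in size are outside the axis. FADS2, ELOVL6 and FADS1 lie above 0.25, and SREBF1 and FASN lie near the line of no difference.

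Because a library factor moves all genes alike, ratios between members within a library do not depend on the scaling. FASN, the main reference here, had a log2 ratio of -0.04 itself. Each difference from FASN lies above the member's own log2 ratio by that size, and all of them share the FASN counts. The ratio of SCD to FASN in CPM was 3.83 in low and 4.40 in high glucose, a log2 difference of 0.20 (0.16 to 0.24). ELOVL6 stood at 0.246 and 0.313 of FASN, a log2 difference of 0.35 (0.27 to 0.42). By the same measure FADS2 gave 0.37 (0.08 to 0.65), FADS1 0.31 (0.19 to 0.42) and ACACA 0.27 (0.18 to 0.35). Smaller differences from FASN were found for ACLY, at 0.12 (0.07 to 0.17), and none was detectable for SREBF1 (-0.01, -0.08 to 0.05), ME1 (0.08, -0.07 to 0.23) or ACACB (0.16, -0.16 to 0.48). FADS1 and FADS2 had a ratio of 6.95 in low and 6.68 in high glucose (log2 difference -0.06, -0.36 to 0.25).

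The promoters of SCD, the most abundant member per kb, and of ELOVL6, FADS1 and FADS2, the members past the limit of 0.25, are given here for 250 bases before to 50 bases after the start of transcription (RefSeq, GRCh38.p14, 5' to 3' on the strand of the gene). Capitals mark CCAAT (either strand), the letters bound by NF-Y, a factor known to act beside SREBP.
SCD, chr10:100346983-100347282, plus strand: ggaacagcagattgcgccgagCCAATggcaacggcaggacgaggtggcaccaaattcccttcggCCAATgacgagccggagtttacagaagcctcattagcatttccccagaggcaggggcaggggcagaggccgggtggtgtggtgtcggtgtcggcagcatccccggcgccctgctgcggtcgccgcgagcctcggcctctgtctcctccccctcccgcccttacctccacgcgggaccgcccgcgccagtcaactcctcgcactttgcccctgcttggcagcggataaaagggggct
ELOVL6, chr4:110198566-110198865, minus strand: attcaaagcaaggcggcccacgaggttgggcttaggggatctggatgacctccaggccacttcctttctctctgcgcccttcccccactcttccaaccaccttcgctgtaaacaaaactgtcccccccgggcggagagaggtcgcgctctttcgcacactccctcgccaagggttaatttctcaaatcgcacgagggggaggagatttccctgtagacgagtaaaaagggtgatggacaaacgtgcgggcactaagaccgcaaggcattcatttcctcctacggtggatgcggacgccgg
FADS1, chr11:61816954-61817253, minus strand: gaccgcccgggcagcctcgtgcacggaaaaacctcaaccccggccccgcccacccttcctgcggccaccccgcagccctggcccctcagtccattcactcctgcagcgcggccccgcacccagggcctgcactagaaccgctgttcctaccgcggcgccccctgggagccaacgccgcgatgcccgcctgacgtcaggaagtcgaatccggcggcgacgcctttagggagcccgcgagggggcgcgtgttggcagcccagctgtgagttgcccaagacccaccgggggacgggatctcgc
FADS2, chr11:61816154-61816453, plus strand: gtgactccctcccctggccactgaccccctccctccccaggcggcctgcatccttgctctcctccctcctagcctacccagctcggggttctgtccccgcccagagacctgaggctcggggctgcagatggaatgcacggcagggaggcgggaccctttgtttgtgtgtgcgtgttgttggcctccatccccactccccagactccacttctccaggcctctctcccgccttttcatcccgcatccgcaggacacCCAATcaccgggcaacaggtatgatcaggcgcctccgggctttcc

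The SCD window holds CCAAT at 229 and at 186 bases before the start, and the windows of ELOVL6 and FADS1 do not hold it. The FADS2 window given here holds it 5 bases after the start, but the window of a second FADS2 start (61815953 to 61816252) does not. The start of FADS1 used here lies 599 bases from the FADS2 start given here and 800 bases from the second one. Transcription from these RefSeq starts runs toward each other. The annotated spans reach past them, to 61829318 for FADS1 and from 61792980 for FADS2. Whether the principal transcripts begin at these starts was not checked. RefSeq windows of this length matched 9 of the 10 members, all but FASN, with 14 starts among them, some of which overlap. CCAAT was found in 7 of these 14 windows, against 34.6% of 35116 windows of all genes. GGGCGG, the GC box of Sp1, was found on either strand in 11 of 14, against 45.0%. Neither TCACNCCAC, a form of the sterol regulatory element, nor the E-box CACGTG was found on either strand in any of these 14 windows, against 1.13% and 7.26% of all windows. TGACNNNGC, a form of the antioxidant response element, was found in 1 of 14, that of ME1, against 13.3%. Such matches describe letters in a short window, and CPM carry no evidence of binding there.

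Near relatives of the members were measured in the same libraries. SCD5, the second human stearoyl-CoA desaturase, was at 4.29 CPM in low and 5.76 CPM in high glucose, with a log2 ratio of 0.42 (0.02 to 0.84), and per kb SCD stood far above it (448 against 1.38 CPM per kb in low glucose). Among the elongases, ELOVL1, ELOVL5 and ELOVL6 were the most abundant per kb, at 52.4, 45.6 and 23.9 CPM per kb in low glucose and 56.2, 56.4 and 29.6 CPM per kb in high glucose. ELOVL5, which elongates the products of FADS2, was at 129 and 159.5 CPM, with a log2 ratio of 0.31 (0.23 to 0.38). The ratio of ELOVL6 to ELOVL5 differed between the libraries by 0.00 on the log2 scale (-0.10 to 0.10). ELOVL2 was at 58.7 and 62.5 CPM, while ELOVL7 was near 1 CPM, ELOVL3 was at 0.104 and 0.269 CPM, and ELOVL4 had no value. FADS3 was at 1.07 and 0.987 CPM, and the malic enzymes ME2 and ME3 were at 59.3 and 63.3 CPM and at 3.74 and 3.91 CPM. SREBF2, the regulator of sterol synthesis, was at 226 CPM in both libraries, with a log2 ratio of -0.002 (-0.06 to 0.06).

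**Figure D4:**
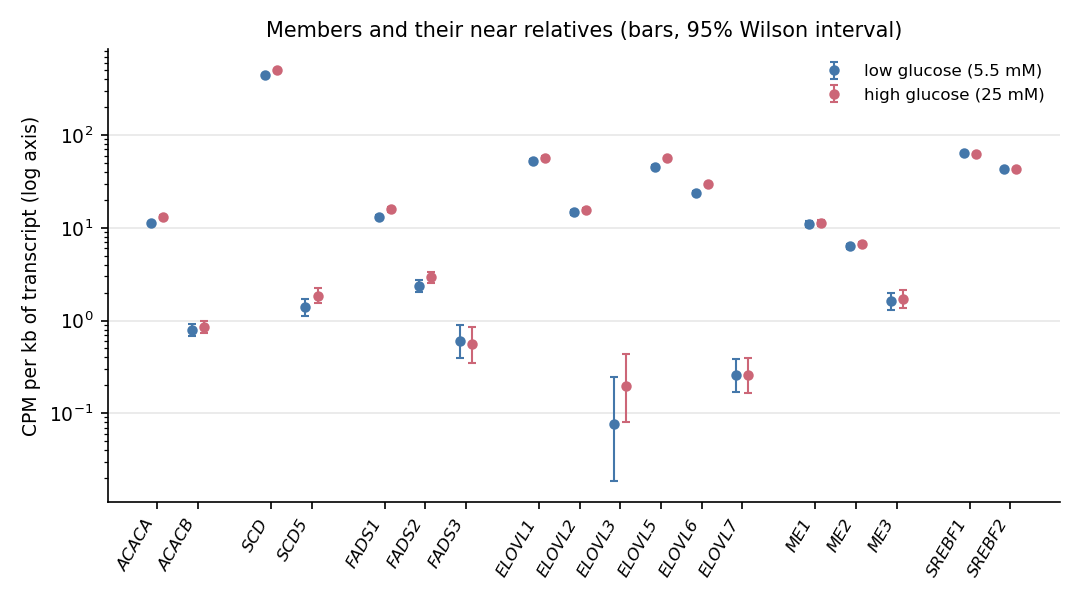
CPM per kb of the principal transcript, on a log axis, for members and their near relatives, with 1 point for each library and 95% Wilson intervals. SCD stands at 448 and 501 CPM per kb against 1.38 and 1.86 for SCD5, and ACACA at 11.2 and 13.1 against 0.788 and 0.857 for ACACB.

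Lists of related genes were read in the same way, and the most abundant gene of a list is the one with the highest CPM, with no correction for length. The first list held regulators of lipogenic transcription. Of 21 listed genes, 19 reached a mean of 1 CPM, of which 7 were higher and 12 lower, with a median log2 ratio of -0.03. INSIG2, which holds the SREBP escort SCAP in the endoplasmic reticulum, was at 35.9 CPM in low and 27.0 CPM in high glucose, with a log2 ratio of -0.41 (-0.57 to -0.25), the lowest of the list. INSIG1, which has the same role and is itself a known SREBP target, was at 138 and 142 CPM (0.04, -0.03 to 0.12), so that the ratio of INSIG1 to INSIG2 was 3.84 in low and 5.26 in high glucose. MID1IP1, which promotes the polymerisation of acetyl-CoA carboxylase, was at 172 and 145 CPM (-0.25, -0.32 to -0.18). INSIG2 and MID1IP1 were the regulators past the limit of 0.25. SCAP was at 76.0 and 77.9 CPM, and the liver X receptors NR1H2 and NR1H3 were at 18.1 and 17.8 CPM and at 3.88 and 3.81 CPM. SREBF2 was the most abundant. The highest ratio was that of MLX, the partner of ChREBP, at 79.2 and 82.8 CPM (0.06), whereas MLXIPL, which encodes ChREBP itself, did not exceed 3 counts in either library and THRSP had no value.

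Elongation of fatty acids runs through a repeated cycle of reactions. Of 12 listed genes, 9 reached a mean of 1 CPM, of which 8 were higher and 1 lower (HACD1, at 4.57 and 3.76 CPM, named after its value was seen), with a median log2 ratio of 0.10. ELOVL5 was its highest. TECR, the reductase of the last step of each cycle, had the lowest ratio among well-expressed genes, at 108 and 110.3 CPM (0.03). HACD3, a dehydratase of the cycle, was the most abundant, at 274 and 307 CPM (0.16). Among the 6 partners and relatives of the desaturases that were expressed, 3 were higher and 3 lower. CYB5B, a cytochrome b5, was at 219 and 262 CPM (0.26, 0.20 to 0.32), and CYB5R3, the most abundant of the list, which passes electrons to cytochrome b5, was at 251 and 242 CPM (-0.05).

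For the supply of precursors and NADPH, 11 of 15 genes were higher and 4 lower, with a median log2 ratio of 0.06. ACSS1, a mitochondrial acetyl-CoA synthetase, was at 43.6 and 49.4 CPM (0.18, 0.05 to 0.31). MTHFD1, of folate metabolism, was the most abundant, at 611 and 618 CPM. Of the 11 genes of acetyl-CoA carboxylase control and biotin, 7 were higher and 4 lower, with a median of 0.08. PRKAA2, a catalytic subunit of the kinase AMPK, was at 56.7 and 63.7 CPM (0.17, 0.05 to 0.28), HLCS, which attaches biotin to the carboxylases, was at 21.5 and 21.1 CPM (-0.03), and PRKAB1 was the most abundant, at 91.5 CPM in both.

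Later steps of lipid metabolism had medians of 0.02 to 0.04. Of 6 genes of fatty acid activation, 3 were higher and 3 lower (median 0.03), with ACSL3 at 177 and 193 CPM (0.13, 0.06 to 0.19), ACSL5 at 24.6 and 22.4 CPM (-0.14, -0.32 to 0.05) and FABP5, the most abundant, at 207 and 220.4 CPM. Glycerolipid assembly had 6 of 10 genes higher (median 0.04). Its extremes among well-expressed genes were GPAT3, an acyltransferase, at 46.9 and 49.8 CPM (0.09), and LPIN2, a phosphatidate phosphatase, at 40.6 and 32.4 CPM (-0.32, -0.47 to -0.17), and AGPAT1 was the most abundant, at 122 and 116 CPM. Fatty acid oxidation, the opposing pathway, had 10 of 15 genes higher and 5 lower (median 0.02). HADHA, of the mitochondrial trifunctional protein, was its most abundant gene, at 478 and 518 CPM, and SLC25A20, the carnitine carrier, was at 16.2 and 18.6 CPM (0.20, -0.01 to 0.42). PPARGC1A, which encodes the coactivator PGC-1alpha, was the lowest, at 26.3 and 18.8 CPM (-0.48, -0.68 to -0.29).

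The separate mitochondrial pathway of fatty acid synthesis, which makes the precursor of lipoic acid, had the lowest median of the lists. The regulators of lipogenic transcription (-0.03) and the desaturation partners and relatives (-0.0009) also had medians below 0. Of the 8 expressed genes of the mitochondrial pathway, 2 were higher and 6 lower, with a median log2 ratio of -0.09. The counting interval lay below 0 for 1 of the 8 and above 0 for 0. NDUFAB1, the mitochondrial acyl carrier protein, was the most abundant, at 151 and 141 CPM, and had the lowest ratio among well-expressed genes (-0.10, -0.17 to -0.02). MCAT, the malonyl transferase of the pathway, had the highest, at 13.4 and 14.4 CPM (0.11). The difference between this list and the members was not tested.

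**Figure D5:**
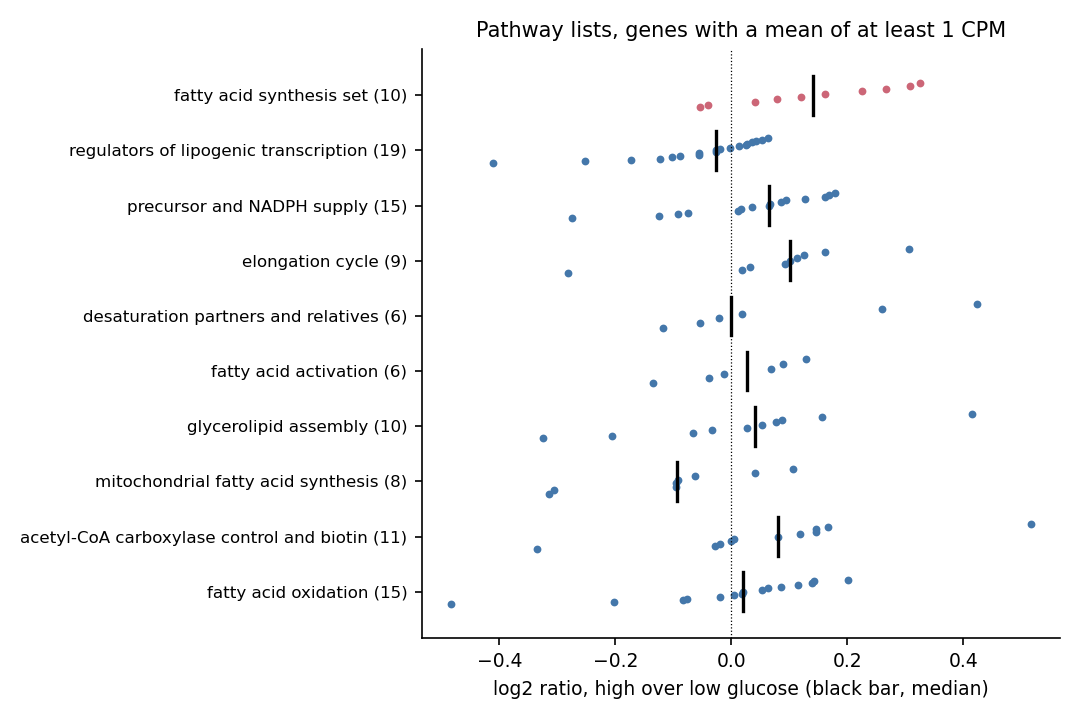
Log2 ratio of high over low glucose, 1 point for each expressed gene (number of genes in brackets), for the 10 members (red) and 9 lists of related pathways (blue). Black bars mark medians, which run from -0.09 for mitochondrial fatty acid synthesis to 0.14 for the members.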

How the data were processed

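The members and the gene lists were chosen with earlier results of these data known. The authors trimmed reads with Trim Galore 0.5.0, aligned them to GRCh38 with STAR 2.6.0, estimated counts per gene with RSEM 1.3.1, left out genes of almost no expression and deposited CPM for each of the 2 libraries with a small prior (lowest value 0.0121 CPM). Gene models were GENCODE v28, and TMM scaling is named in the methods, but the deposited CPM less the prior summed to 1000000 in each library. The columns of the authors' own mean and fold were not used. Here, the total estimated count of each library was read from the steps between low CPM, and 73.8% and 74.0% of values under 10 CPM fell within 0.05 of a whole count. No count model was therefore run. CPM were divided by TMM factors computed from these counts (0.998 and 1.002). CPM carry 95% Wilson intervals, log2 ratios exact binomial intervals, and differences between log2 ratios a normal approximation, with counts as if independent molecules. Log2 ratios keep the deposited prior. Calculations were tested on simulated data.

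All members were named. From each list, those named had the highest and the lowest log2 ratio among genes that averaged 10 CPM or more, or the highest mean, besides relatives, overlapping genes and preset regulators. Of the genes this rule names, 1 is not reported here. Positions and lengths came from GENCODE v29 on GRCh38, which holds 73.4% of the 19989 symbols, and the longest principal transcript was used. Promoters came from RefSeq. Python 3.11.15, numpy 2.4.6, pandas 2.3.3 and scipy 1.17.1 were used.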

Additional observations from a re-analysis of the deposited data

How the results depend on the processing

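Over 45 results, 163 alternative values were computed, and 4 moved. A value counted as moved when it left its counting interval, a count when it differed by over 1.5 times, and a median when it shifted by more than the counting error of SCD, the narrowest among the members. The median for desaturation partners and relatives, near 0, changed sign from -0.00091 to 0.0035 with library totals and 0.0032 with median-of-ratios factors. Library totals, median-of-ratios factors, a pseudocount of 1 CPM and leaving out the prior kept the sign of the log2 ratio of all 10 genes. This is no strong check. An equal pseudocount cannot change a sign, the TMM factors (0.998 and 1.002) were near 1, and the prior was 0.0121 CPM. The number of genes higher by the limit, 3 at a log2 ratio of 0.25, was 0 at limits of 0.5 and 1. The median log2 ratio of the members was 0.14, and 0.12 without ACACB and FADS2, which averaged under 10 CPM. The median for acetyl-CoA carboxylase control and biotin was 0.08, and 0.10 with that filter. Leaving out a library leaves no ratio. Depth limits ACACB and FADS2 most, with 156 to 208 counts. No paired analysis was possible because there was 1 library for each concentration.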
